A study of Mus musculus with 3 samples.

Results

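The clustered protocadherin genes are 58 variable exons, each with its own promoter, in a row on chromosome 18 of the mouse genome (mm9). They were taken as a list of gene names (the Pcdha, Pcdhb and Pcdhg genes) and make up 58 of 22393 genes with a promoter on the autosomes and sex chromosomes. The list uses no measured value. They fall into 12 alpha genes (Pcdha1 to Pcdha12), 22 beta genes (Pcdhb1 to Pcdhb22), 19 gamma genes of the A and B types, and 5 C-type genes (Pcdhac1, Pcdhac2, Pcdhgc3, Pcdhgc4 and Pcdhgc5). All are on the plus strand, with transcription start sites at chr18:37089939 to 37179884 from Pcdha1 to Pcdha12, 37249790 for Pcdhac1 and 37303623 for Pcdhac2, 37424652 to 37678007 from Pcdhb1 to Pcdhb22, 37821599 to 37925234 from Pcdhga1 to Pcdhga12, and 37966064 to 37979200 from Pcdhgc3 to Pcdhgc5. Protocadherins of the clusters are cell surface proteins through which neurons recognise themselves and each other. A neuron transcribes only a few of the variable exons, each from its own promoter, and the alpha and gamma exons are then spliced to constant exons shared by their cluster, whereas a beta gene has its whole reading frame in the variable exon. CTCF, a zinc finger protein that binds DNA and anchors chromatin loops, is known to bind most of these promoters at a conserved sequence element and to bring them to distant enhancers. That element is known to be missing from the promoters of Pcdhac2, Pcdhb1, Pcdhgc4 and Pcdhgc5.

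DNA methylation and CTCF occupancy were measured by bisulfite sequencing in ES cells of the mouse, pluripotent cells derived from blastocysts, with 3 libraries in all. For CTCF ChIP-BisSeq, DNA was precipitated with an antibody to CTCF, converted with bisulfite and sequenced. Its 2 replicates are from wild type ES cells of blastocysts with a mixed 129-C57Bl/6 background, and each holds the pooled DNA of 5 ChIP experiments. WG-BisSeq, which reads the whole genome, was done once with REST knockout ES cells, which lack the transcriptional repressor REST and come from blastocysts of a Black Agouti 129 background. Both kinds of cell were grown with LIF on feeder cells or on gelatine, so some DNA may be that of feeder cells. Genotype, strain and assay therefore differ together between ChIP-BisSeq and WG-BisSeq, and the comparison between them is one of libraries. A value is an average over many cells and both alleles, so that a level near the middle of the scale does not tell methylation of some cells from methylation of some alleles.

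Each CpG has a number of observations and a number of methylated observations, and methylation is the percent of observations that were methylated over all CpGs of a window. There were 13405420 observations in replicate 1 and 25262179 in replicate 2 of ChIP-BisSeq, and 273375318 in REST knockout cells. All 58 promoters (500 bp on either side of the transcription start site, TSS) reached 10 observations in every library. In the REST knockout library exon 2 of Rest was covered 0.293 times per CpG (12 observations over 41 CpGs) against 5.60 to 29.7 times in the other exons, while both ChIP-BisSeq libraries covered it with 28 and 173 observations. The promoters of the ES cell genes Pou5f1, Nanog, Zfp42, Esrrb and Tdgf1 were 4.04% to 16.9% methylated in REST knockout cells. Methylation alone does not identify a cell type, and no expression was measured.

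CTCF was enriched at most clustered protocadherin promoters. A promoter was called enriched when both replicates held at least 10 observations and at least 2.83 times (1.5 on the log2 scale) the observations expected from the coverage of the REST knockout library. By this rule 48 of 58 members were enriched, whereas 5.87% of all 22349 promoters with a CpG were. All 12 alpha genes, 21 of 22 beta genes and 14 of 19 gamma genes were enriched, and 1 of 5 C-type genes. With only those CpGs that lie in unique reads, an alternative added after seeing the data, Pcdha8 lost its call (1.20 and -0.38), leaving 11 of 12 alpha genes, while Pcdhga2, Pcdhga3 and Pcdhgb6 gained one, making 17 of 19 gamma genes. The median enrichment of the alpha promoters was 3.44 in replicate 1 and 3.62 in replicate 2 on the log2 scale, that of the beta promoters was 3.42 and 3.57, that of the gamma promoters 2.26 and 2.39, and that of the C-type promoters -0.20 and -0.05. Over all promoters the medians were -0.73 and -0.72. The lower gamma values depend on the window. In the 500 bp before the start codon all 19 gamma genes were enriched, with medians of 4.58 and 4.48, beside 4.76 and 4.66 for alpha genes. In the 500 bp after it the medians were -0.01 and 0.01 for gamma and 2.50 and 2.84 for alpha genes. There is no input library, so the enrichment has no test. Its spread is given as the difference between the replicates, which leaves out the counting error of the REST knockout coverage that divides both. The replicates ranked the members in nearly the same order (Pearson's r = 0.97 and Spearman's rho = 0.96 over 58 members, as a description, since both are divided by the same REST knockout coverage).

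**Figure D1:**
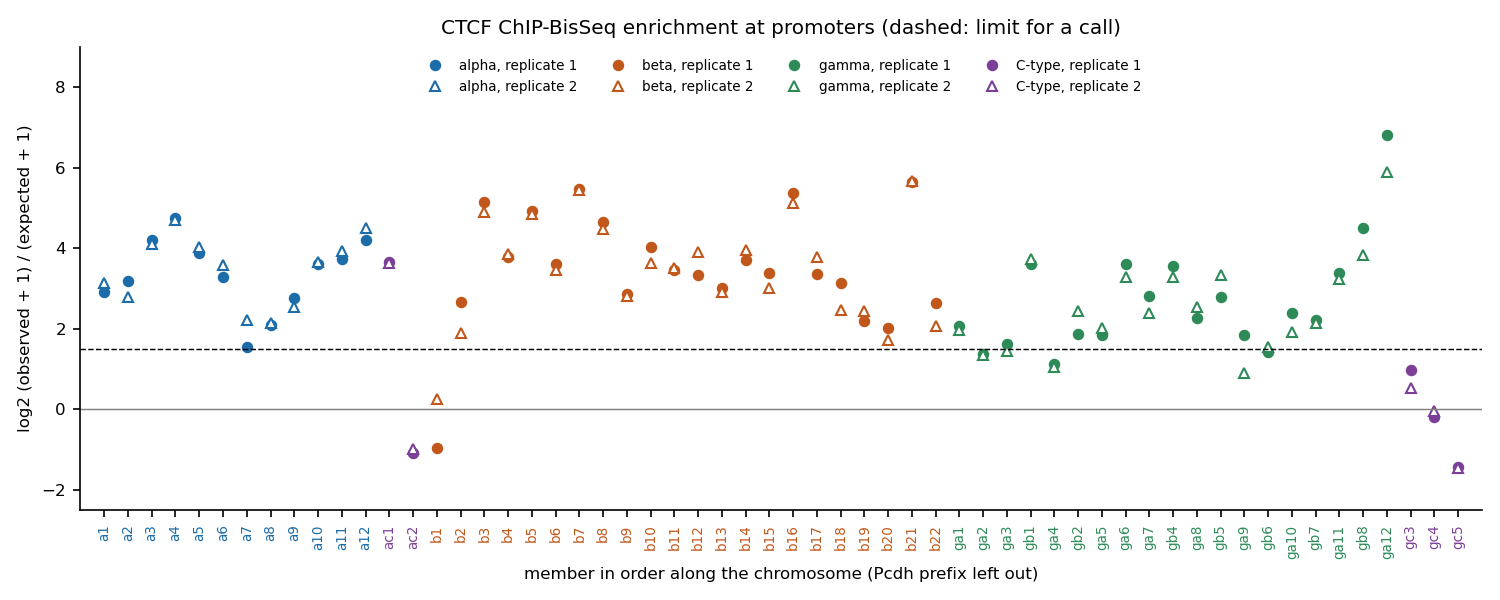
CTCF ChIP-BisSeq enrichment at each promoter, on the log2 scale of observed over expected observations, for the 58 members in their order along the chromosome. Filled circles are replicate 1, open triangles replicate 2, colours the subfamilies and the dashed line the limit of 1.5. Pcdhac2, Pcdhb1, Pcdhgc4 and Pcdhgc5 lie near or below 0 in both replicates, while all 12 alpha promoters lie above the limit.

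By the window around the TSS, the promoter of Pcdhga12, the last gamma A gene, was the most enriched. It held 696 observations in replicate 1 and 611 in replicate 2, but only 66 in the REST knockout library, over 12 CpGs (TSS at position 37925234, 537 bp before its start codon). This is an enrichment of 6.81 and 5.89 on the log2 scale. Next came 4 beta genes, with a mean and SD over both replicates (n = 2) of 5.66 ± 0.012 for Pcdhb21, 5.47 ± 0.015 for Pcdhb7, 5.24 ± 0.18 for Pcdhb16 and 5.03 ± 0.18 for Pcdhb3. The denominators of these values are small, and their counting error is not in the SD. The REST knockout library has 11 observations at the promoter of Pcdhb21 and 27 at that of Pcdhb16. When the expected value was taken from the number of CpGs in place of the REST knockout coverage, Pcdhb21 stood at 3.71 and 3.43 and Pcdhga12 at 6.37 and 5.42. The ranking also depends on the window. In the 500 bp before the start codon Pcdhga12 had 6.85 and 5.93. Pcdhb10 (6.61 and 6.52), Pcdhb8 (6.52 and 6.49) and Pcdhb3 (6.48 and 6.33), picked after their values had been seen, had higher means there. These beta genes had only 5, 19 and 25 REST knockout observations in that window.

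At the other end stood 4 of the 5 C-type promoters and that of Pcdhb1, the gene nearest to the alpha cluster among the beta genes. Pcdhgc5 had 10 observations in replicate 1 and 18 in replicate 2 against 363 in REST knockout cells, giving -1.43 and -1.46. The promoter of Pcdhac2 (TSS at position 37303623), the richest in CpGs of all members with 89, gave -1.09 and -0.99. Pcdhb1 gave -0.97 and 0.26, and Pcdhgc4 gave -0.20 and -0.05. These 4 were also not called when the expected value came from the number of CpGs, which raised the count of enriched members to 54 and the share of all promoters to 11.9%. Pcdhgc3 lay between, with 0.98 and 0.52, and was called (2.47 and 2.02) by the number of CpGs alone. Pcdhac1, in contrast, had 854 and 1481 observations in the ChIP-BisSeq replicates against 845 in REST knockout cells, an enrichment of 3.66 and 3.62 that is within the range of the alpha genes. The remaining uncalled members were 5 gamma genes close to the limit, Pcdhga2, Pcdhga3, Pcdhga4, Pcdhga9 and Pcdhgb6, whose values ran from 0.91 to 1.85. The lowest alpha promoter was that of Pcdha7, with 1.54 and 2.22, and the highest that of Pcdha4, with 4.75 and 4.71.

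To see where the enrichment lies, the members were lined up on the start codon of the variable exon and cut into steps, a division that was made after the promoter values had been seen. In the 500 bp before the start codon, 52 of 58 members were enriched, against 5.23% of all genes. The exceptions were Pcdhac2, Pcdhb1, Pcdhgc3, Pcdhgc4, Pcdhgc5 and Pcdha8. For Pcdha8 the replicates differed, with 23 observations in replicate 1 and 2 in replicate 2. Farther up, from 1000 to 501 bp before the start codon, 4 members were enriched (Pcdha2, Pcdhgb2, Pcdhgb7 and Pcdhgb8), against 4.68% of all genes. In the 100 bp steps, summed over the members of a subfamily, the mean of both replicates was highest in the step that begins 300 bp before the start codon for the alpha genes (5.80) and the beta genes (6.36), and in the step that begins 400 bp before it for the gamma genes (6.21).

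Inside the exon, within 500 bp after the start codon 9 of 12 alpha genes were enriched, but none of 22 beta genes and 2 of 19 gamma genes (Pcdhgb1 and Pcdhga6), with 2.26% of all genes. In the next 500 bp 8 alpha genes were enriched, 1 beta gene (Pcdhb22) and 1 gamma gene (Pcdhgb5), with 2.71% of all genes. The summed alpha profile had a trough of 0.50 between 100 and 199 bp and a second maximum of 5.03 between 400 and 499 bp after the start codon. The top 100 bp step, by ChIP-BisSeq observations, lay after the start codon in 8 of 12 alpha genes, and before it in all 19 gamma genes and 15 of 22 beta genes.

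The beta genes had a second region of CTCF enrichment near the end of the variable exon, which for them is the end of the reading frame. Between 2000 and 2499 bp after the start codon 14 of 22 beta genes were enriched, with 0 of 12 alpha genes, 1 gamma gene (Pcdhga8) and 1 C-type gene (Pcdhgc3) and 1.99% of all genes. The most enriched at this place was Pcdhb14, with 102 and 361 ChIP-BisSeq observations against 81 in REST knockout cells (3.80 and 4.86). By the mean of both replicates Pcdhb18 followed it, with 44 and 230 against 66 (2.86 and 4.48), then Pcdhb17, with 131 and 244 against 137 (3.48 and 3.59). Pcdhgc3 there had 84 and 331 against 231 (2.14 and 3.30). Between 1000 and 1499 bp and between 1500 and 1999 bp no member reached the limit, where 2.25% and 1.93% of all genes did. The genes named in this and the preceding paragraph for single steps were chosen after their values had been seen.

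**Figure D2:**
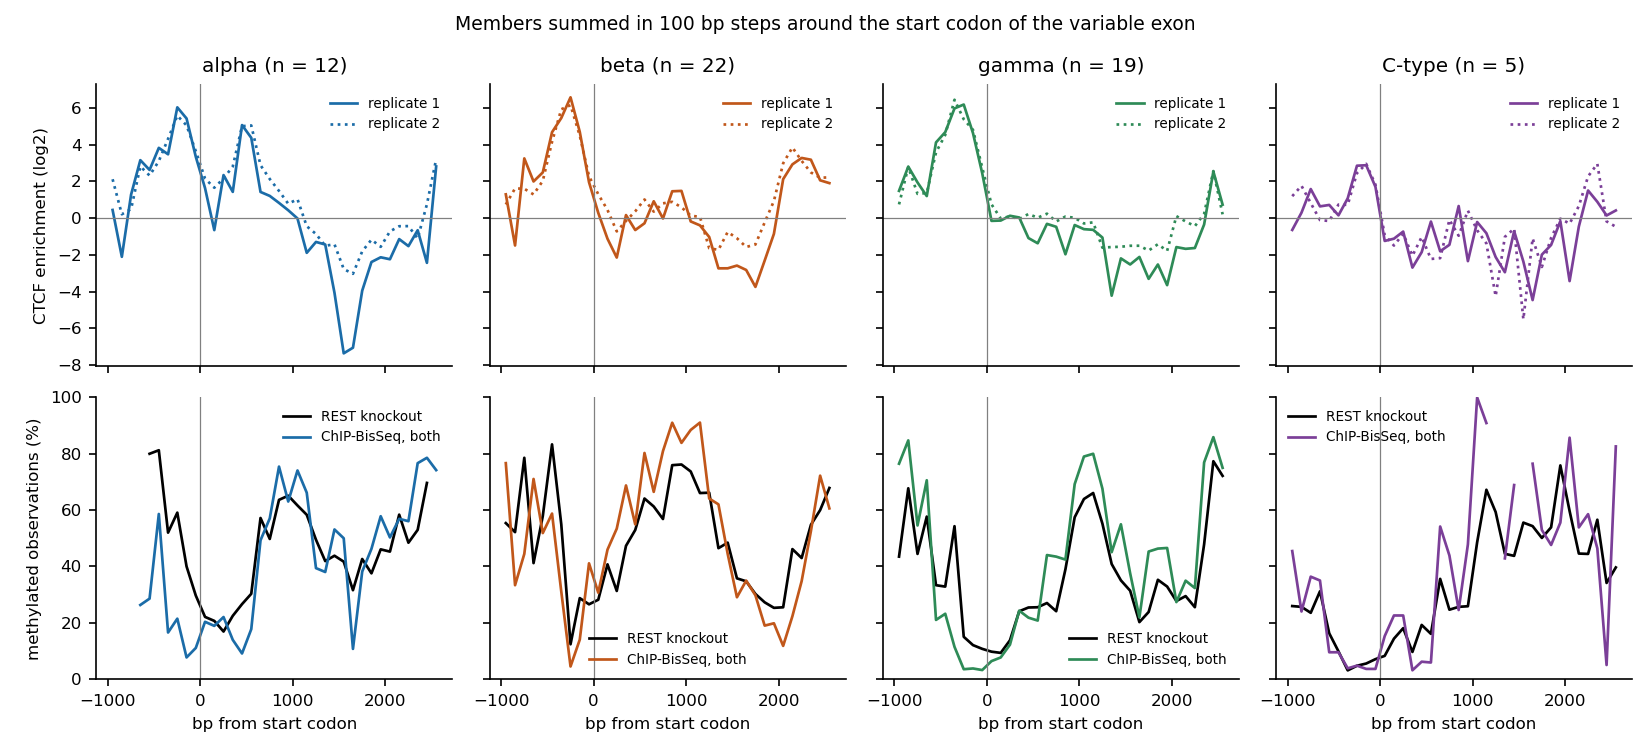
Members summed in 100 bp steps from the start codon of the variable exon, for the alpha, beta, gamma and C-type genes. The upper row gives CTCF enrichment on the log2 scale in replicate 1 (solid) and replicate 2 (dotted), and the lower row the percent of methylated observations in REST knockout WG-BisSeq (black) and both ChIP-BisSeq replicates summed (colour), for steps with at least 10 observations. All have a maximum before the start codon, the alpha genes a further one of 5.03 at 400 to 499 bp, and the beta genes one of 3.38 at 2100 to 2199 bp. Of the 5 C-type genes only Pcdhac1 was enriched in the 500 bp before the start codon. It had 829 and 1420 observations there, and the next, Pcdhgc3, had 218 and 287.

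The CTCF consensus, a 13 bp motif searched on both strands, was found at 1 shared place in part of the alpha exons and at another in part of the beta exons. An exact match lay between 456 and 483 bp after the start codon in 6 of 12 alpha genes, and a match with at most 1 mismatch in 8 of 12. Over all genes the window of 0 to 499 bp holds an exact match in 0.759% and one with at most 1 mismatch in 7.09%. These 8 genes (Pcdha1, Pcdha4, Pcdha5, Pcdha6, Pcdha7, Pcdha8, Pcdha10 and Pcdha12) included 7 of the 9 alpha genes enriched in that window. All 8 matches had the same orientation relative to the gene. In the beta genes a match with 1 mismatch lay between 2181 and 2244 bp in 13 of 22 genes, against 7.46% of all genes in the window of 2000 to 2499 bp. Of these 13 genes, 10 were among the 14 enriched there, and all 13 matches had the orientation opposite to that of the 8 alpha matches. Before the start codon, where enrichment was highest, a match with at most 1 mismatch was found in 1 member, the beta gene Pcdhb18, against 8.27% of all genes in that window of 500 bp. The absence of a match says only that these letters are not in the window. A shared position is in part a property of the sequences, since the variable exons of a subfamily are copies of each other.

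Outside the promoters, CTCF was enriched at a small number of places. From 1000 bp before the TSS of Pcdha1 to the end of the gamma transcripts (chr18:37088939-38001527), 110 of 1664 bins of 500 bp that hold a CpG were enriched, which is 6.61%, with 1.11% of such bins over the genome. Of these 110 bins, 81 touched a member's promoter, 13 touched a variable exon only, and 16 lay elsewhere. The largest group elsewhere was a run of 4 bins (chr18:37376501-37378500) between the alpha and the beta genes, beginning 29190 bp after the end of the alpha transcripts, where no gene is annotated. In its second bin replicate 1 had 161 observations and replicate 2 had 116, against 28 in REST knockout cells (5.66 and 4.56), and in its last bin they had 208 and 223 against 48 (5.45 and 4.85). Methylation in these bins was 1.24% and 4.31% in the ChIP-BisSeq replicates and 0% of 28 observations in REST knockout cells in the former, and 0.96%, 0.90% and 14.6% in the latter. An enhancer of the alpha genes that binds CTCF is known to lie between the alpha constant exons and the beta genes, but the annotation used does not give its position.

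A second such place lay before Pcdhga1, the gene at the start of the gamma cluster. The bin chr18:37815001-37815500, which begins 6598 bp before the TSS of Pcdhga1, had 281 and 569 observations against 70 (5.43 and 5.71), and its methylation was 5.34%, 3.87% and 5.71% in replicate 1, replicate 2 and REST knockout cells. At the far end, within the last exon of the gamma transcripts, the bin chr18:38001001-38001500 had 154 and 182 observations against 122 (3.87 and 3.33). Its methylation was 16.9% and 7.14% in ChIP-BisSeq and 45.1% in REST knockout cells. Several other bins elsewhere rest on few REST knockout observations, as few as 1 at chr18:37931501-37932000.

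Methylation of the promoters in REST knockout cells covered a wide range, from 4.29% at Pcdhac2 to 65.5% at Pcdhb9. With the observations of each subfamily summed, the beta promoters were the most methylated, at 33.3% (95% Clopper-Pearson interval, for counting error only, 31.7% to 34.9%), followed by the alpha promoters at 24.4%, the gamma promoters at 12.1% and the C-type promoters at 9.79%. Medians over members came in the same order, with 33.0% for beta, 23.4% for alpha, 11.7% for gamma and 10.5% for C-type genes, while the median over all promoters was 8.74%. The ranges overlap between all subfamilies, with 14.6% to 65.5% for beta, 12.3% to 51.7% for alpha, 4.46% to 40.1% for gamma and 4.29% to 47.4% for C-type genes, so that no subfamily is set apart by the promoter level of each of its members. The order of alpha and beta also depends on the window. In the 500 bp before the start codon alpha genes summed to 37.5% and beta genes to 28.4%, and in the 500 bp after it to 21.6% and 38.5%. The TSS used is the start codon in 11 of 12 alpha but 2 of 22 beta genes. The coverage of the REST knockout library at these promoters differs as well, from 6.51 observations per CpG for alpha and 9.10 for beta genes to 17.0 for gamma and 21.3 for C-type genes, and its part in the order was not tested.

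Among the beta genes Pcdhb9 (65.5% of 55 observations, interval 51.4% to 77.8%), Pcdhb15 (60.8% of 102) and Pcdhb7 (58.1% of 43) had the most methylated promoters. Pcdhb1 (14.6% of 507), Pcdhb16 (14.8% of 27) and Pcdhb21 (18.2% of 11) had the least, and the interval of Pcdhb21, from 2.28% to 51.8%, overlaps that of every other beta gene. Of the alpha genes, Pcdha8 stood at 51.7% of 238 observations, Pcdha4 at 32.8% of 134 and Pcdha6 at 31.3% of 224, while Pcdha12 had 12.3% of 187, Pcdha7 12.7% of 322 and Pcdha1 20.7% of 463. The interval of Pcdha8, from 45.1% to 58.2%, lies above those of the other 11 alpha genes. In the gamma cluster Pcdhgb2 had 40.1% of 451 observations, Pcdhgb8 37.4% of 254 and Pcdhga6 25.7% of 191, and the lowest were Pcdhga8 with 4.46% of 718, Pcdhga3 with 6.35% of 819 and Pcdhga5 with 7.51% of 839.

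The C-type promoters did not behave as a group. Pcdhac2 (4.29% of 2516 observations), Pcdhgc3 (5.71% of 1523) and Pcdhgc4 (10.5% of 410) were at the low end of all members, Pcdhac1 had 17.0% of 845, and Pcdhgc5 had 47.4% of 363, with an interval of 42.1% to 52.7%. They also differ in CpG number, from 17 at Pcdhgc5 to 89 at Pcdhac2. Over the 58 promoters methylation was lower where CpGs were more frequent (Pearson's r = -0.56, Spearman's rho = -0.57), as a description of promoters that are in part copies of each other and share 1 library. Within the alpha genes r was 0.39, within the beta genes -0.13 and within the gamma genes -0.42, so that the relation over all members is in part one between subfamilies. The median number of CpGs was 15 in beta, 33 in gamma, 38 in alpha and 50 in C-type promoters, with 41 over all genes.

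**Figure D3:**
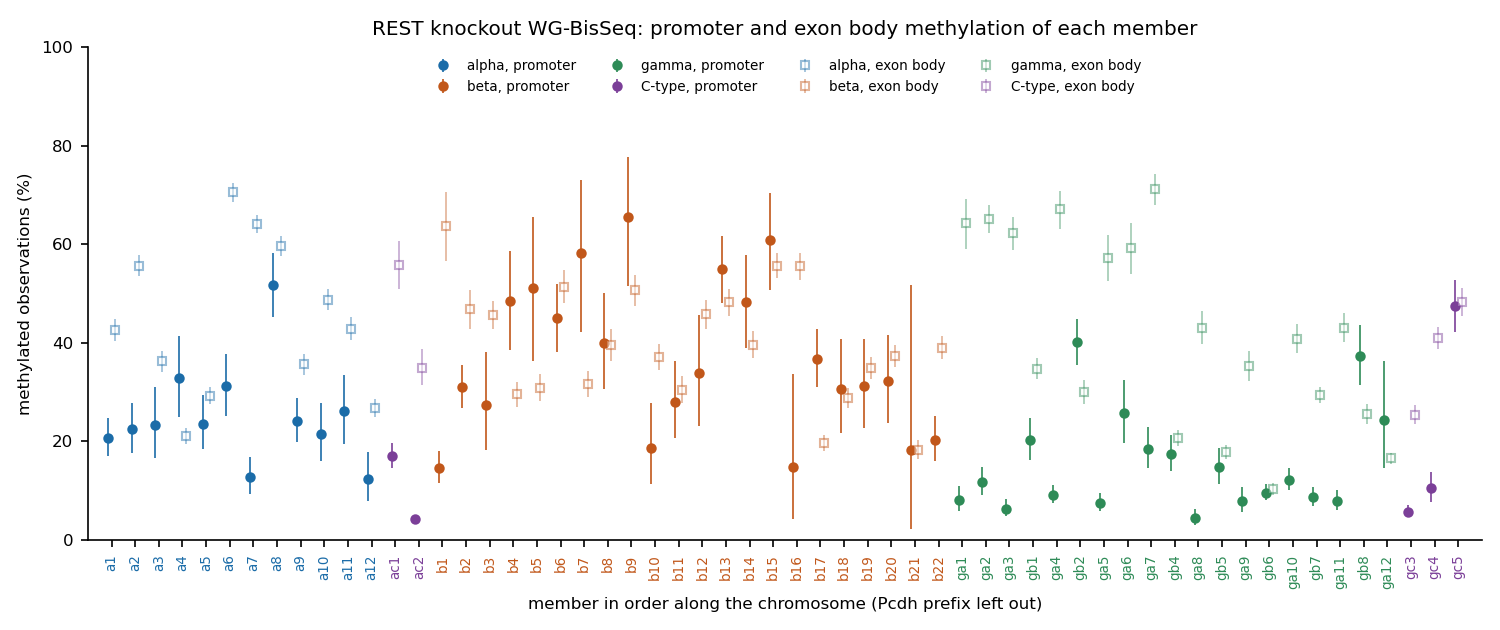
Methylation in REST knockout WG-BisSeq of each member, in percent of observations, for the promoter (filled circles) and the exon body (open squares). Members are in their order along the chromosome, and bars are 95% Clopper-Pearson intervals. The first 3 gamma A genes have promoters of at most 11.7% beneath exon bodies of at least 62.2%, while the beta genes Pcdhb5 and Pcdhb7 have promoters above their exon bodies.

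The exon bodies (500 bp after the TSS to the end of the variable exon) were also compared between subfamilies. With observations summed, they were 44.4% methylated in REST knockout cells for alpha, 37.5% for beta, 31.2% for gamma and 37.5% for C-type genes. The medians over members were 42.7% for alpha, 39.2% for beta, 40.8% for gamma and 41.0% for C-type genes, at 17.9 to 25.7 observations per CpG. The gamma genes held both extremes, with 71.2% at Pcdhga7 and 10.3% at Pcdhgb6. By type, the 12 gamma A genes had a median of 58.2% (16.5% to 71.2%) and the 7 gamma B genes a median of 25.5% (10.3% to 34.7%). The lowest gamma A gene was Pcdhga12, which also has the most CpGs in its exon body, 144. Gamma B exon bodies have 81 to 110 CpGs and gamma A exon bodies a median of 54.5. Over the 19 gamma genes methylation of the exon body fell with its number of CpGs (r = -0.88, rho = -0.91), and over all 58 members less closely (r = -0.58, rho = -0.56), again as descriptions within 1 library. The split by gamma type was made after the values had been seen.

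**Figure D4:**
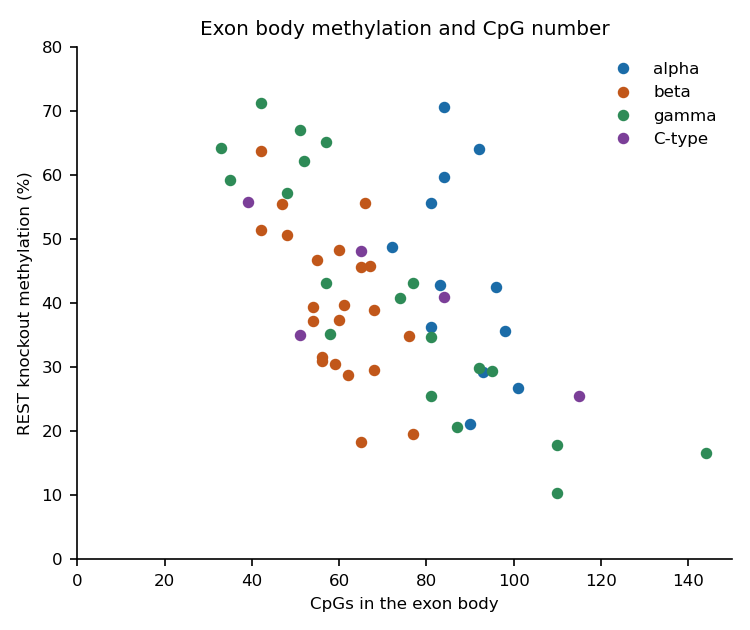
Methylation of the exon body in REST knockout WG-BisSeq (percent of observations) against the number of CpGs in the exon body, 1 point for each of the 58 members, coloured by subfamily. The gamma genes run from 71.2% at 42 CpGs (Pcdhga7) to 10.3% at 110 CpGs (Pcdhgb6).

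The promoter was compared with the region 500 to 3000 bp after the TSS by a two-sided Fisher exact test on the counts of the REST knockout library, with Benjamini-Hochberg adjustment over 19967 genes. A difference was called at an adjusted p below 0.05 and at least 20 percentage points. By this rule 22 of 58 members had a less methylated promoter, where 43.0% of all genes tested did, and 2 members had a more methylated promoter, where 3.71% did. The share of members with a less methylated promoter is therefore near that of all genes, and by subfamily it was 12 of 19 gamma, 3 of 5 C-type, 5 of 12 alpha and 2 of 22 beta genes. Of the gamma genes, 11 of 12 of the A type and 1 of 7 of the B type were called. The median difference was -27.6 percentage points for gamma, -30.5 for C-type, -15.7 for alpha and -1.20 for beta genes, and -15.3 for all genes. The test covers counting error in 1 library.

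The C-type genes called were Pcdhac1 (17.0% against 55.8% in the downstream region), Pcdhac2 (4.29% against 35.0%) and Pcdhgc4 (10.5% against 41.0%). Pcdhgc3 (5.71% against 25.4%) missed the limit of 20 points. Pcdhgc5 had 47.4% against 44.3%, at an adjusted p of 0.36 by the exact test. The 2 members with a more methylated promoter were both beta genes. Pcdhb7 had 58.1% against 31.8% downstream (adjusted p = 0.0011, Fisher exact test with Benjamini-Hochberg adjustment) and Pcdhb5 had 51.0% of 49 observations against 31.0% (adjusted p = 0.0065, same test).

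In both ChIP-BisSeq replicates the promoters of the members were mostly less methylated than in the REST knockout library. Levels summed by subfamily were 14.0% in replicate 1 and 12.2% in replicate 2 for alpha promoters (24.4% in REST knockout cells), 17.1% and 16.1% for beta promoters (33.3%), 6.12% and 5.14% for gamma promoters (12.1%), and 2.94% and 6.22% for C-type promoters (9.79%). Of the 58 members, 46 were lower in both replicates, which is 79.3%, while 45.6% of all 13681 genes tested were. With the same limits as above, in both replicates, 13 members were called less methylated in ChIP-BisSeq, where 0.841% of all genes were. None was called more methylated, where 0.570% of all genes were, and at an unadjusted p below 0.05 by the Fisher exact test in both replicates 1 member was higher (Pcdhb12) and 33 were lower, where 3.45% and 11.8% of all genes were. The 13 were 10 beta genes, Pcdha4, Pcdhgb2 and Pcdhgb8. All 13 were among the 48 enriched for CTCF, but this overlap is in part set by the limit. Among the 10 members not enriched, Pcdhac2 (4.29%), Pcdhgc3 (5.71%), Pcdhgc4 (10.5%) and Pcdhb1 (14.6%) were too low in REST knockout cells to be called. A promoter below 20% in REST knockout cells cannot be called lower, since the limit is 20 percentage points. Median levels there were 33.0% for beta, 23.4% for alpha, 11.7% for gamma and 10.5% for C-type promoters. Over the 58 members the median was 22.9%, and over all promoters it was 8.74%. The share of all genes called and that of beta genes among the 13 thus depend on the starting level, whose part was not tested. A promoter that starts low also has little room to be lower in both replicates, so the shares of 79.3% and 45.6% may depend on that level too. The levels weight CpGs by coverage, which lies at different places in the libraries. In the 500 bp before the start codon every subfamily was lower in both replicates, beta with 15.4% and 14.3% against 28.4%. In the 500 bp after it alpha was lower (13.4% and 12.3% against 21.6%) and beta higher (63.4% and 41.8% against 38.5%). The replicates of gamma and C-type genes went opposite ways there. The part of this weighting was not tested. The test compares libraries, and the part of genotype, strain and assay cannot be told apart.

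**Figure D5:**
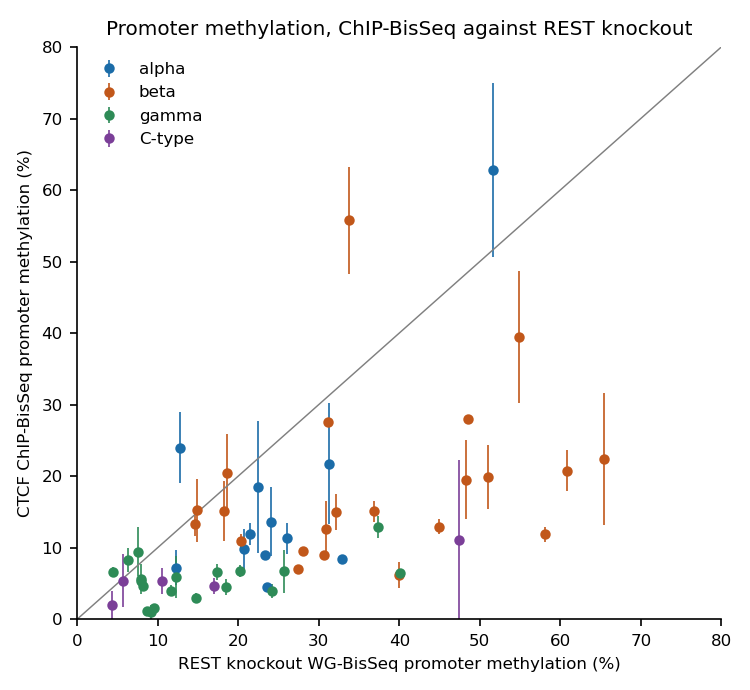
Promoter methylation of the 58 members in CTCF ChIP-BisSeq (mean of both replicates, bars from the lower to the higher replicate) against REST knockout WG-BisSeq, both in percent of observations. The grey line marks equal levels. Most members lie below it, Pcdhb7 with 58.1% in REST knockout cells and 11.8% in ChIP-BisSeq among the farthest, and Pcdhb12 and Pcdha8 lie above it.

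The 5 members with the largest differences were chosen by those differences, so that their values are a description. Pcdhb7 had 10.8% of 195 observations in replicate 1, 12.9% of 310 in replicate 2 and 58.1% of 43 in REST knockout cells (adjusted p = 7.7e-09 and 9.8e-09, Fisher exact test). Pcdhb8 had 4.29% of 233, 8.02% of 349 and 40.0% of 105, and Pcdhgb2 had 6.02% of 133, 6.80% of 353 and 40.1% of 451. For Pcdhb15 the levels were 23.7% of 93, 17.9% of 123 and 60.8% of 102. Pcdhb9 had 31.6% of 38, 13.1% of 61 and 65.5% of 55, so that its replicates lay farther apart, at 22.3% ± 13.1 (SD, n = 2).

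Between the replicates themselves, 1 of 58 members was called different by the same exact test, where 3.62% of all 13689 genes tested were. This was Pcdha8, with 75.0% of 84 observations in replicate 1 and 50.7% of 152 in replicate 2 (adjusted p = 0.0040, Fisher exact test). Replicate 2 lay inside the interval of REST knockout cells, 45.1% to 58.2%, and replicate 1 above it. In the promoter window used, Pcdha8 is thus the alpha gene with the most methylated promoter in all 3 libraries. Pcdhb12 also stayed methylated in ChIP-BisSeq, with 63.2% of 68 and 48.3% of 172, against 33.8% of 74 in REST knockout cells. The median difference between replicates, regardless of sign, was 3.36 percentage points over the members and 3.38 over all genes.

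Methylation along the exon was also set beside the CTCF profile. At 400 to 499 bp, where the alpha genes had their second CTCF maximum, methylation summed over the alpha genes was 7.50% in replicate 1, 10.0% in replicate 2 and 26.6% in REST knockout cells. In the step that begins at 800 bp, with an enrichment of 0.83 and 1.48, REST knockout cells had 63.6%, and in the steps of lowest CTCF enrichment, beginning at 1500 and 1600 bp (mean enrichment -5.07 and -5.05), they had 41.7% and 31.6%. Both steps had 0 observations in replicate 1, with values of -7.37 and -7.06 there but -2.77 and -3.03 in replicate 2. Their REST knockout coverage, which divides the enrichment, was 2077 and 1676 observations over 87 and 54 CpGs. In the beta genes the step at 2000 bp, the start of their second CTCF region, had 14.9%, 10.8% and 25.5%, and the step of lowest CTCF enrichment inside the exon, at 1700 bp (mean enrichment -2.59), had 31.6%, 29.5% and 30.2%. That beta step had 3392 REST knockout observations over 104 CpGs, and this coverage divides the enrichment. It is not the step with the fewest ChIP-BisSeq observations. The step at 800 bp, with a mean enrichment of 1.17, had 76.0% in REST knockout cells. Methylation in REST knockout cells thus had no single order with CTCF enrichment along the exon. The promoter was less methylated than the region 500 to 3000 bp after the TSS in 49 of 55 members with at least 10 observations in replicate 1, in 55 of 58 in replicate 2 and in 43 of 58 in REST knockout cells, where 84.5%, 85.2% and 80.3% of all genes were.

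None of 12 non-clustered protocadherins was enriched, with a median of 0.11 and -0.40 on the log2 scale, and their promoters were 3.52% to 88.6% methylated in REST knockout cells (median 13.8%). Of 5 genes beside or between the clusters (Zmat2, Slc25a2, Taf7, Diap1 and Hdac3), 1 was enriched, Diap1, with 2.52 and 2.07. The difference between these lists and the clustered genes was not tested.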

How the data were processed

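For each library the authors deposited, per CpG, the count of observations and the count of methylated observations, as whole numbers without normalization. The submitters' processing notes name Bowtie 0.10.0.1 and mm9, and the handling of PCR duplicates is not given in the sources used here. Observations from PCR reads are not independent molecules, so intervals and tests cover counting error only. The members and all lists were chosen with earlier results of these data known.

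Counts were indexed on the 21342492 CpGs of mm9 (autosomes and sex chromosomes) with Python 3.11.15, NumPy 2.4.6, pandas 2.3.3, SciPy 1.17.1 and Numba 0.67.0, and a CpG not listed counted as 0. CpGs of mitochondrial DNA, listed in replicate 1 only (189), were left out. Genes and TSSs are from GENCODE vM1, with the protein-coding transcript of the longest coding sequence. That annotation holds Pcdhb20 as a pseudogene and joins most alpha and gamma exons under other names, so variable exons were found as open reading frames of at least 2000 nt on the plus strand (61 found, 58 used) and named by their order and spacing in RefSeq, from which their distances to Pcdhb1 differed by at most 537 bp. For 41 members the TSS is that of a transcript and for the others the start codon; in 28 members in all TSS and start codon coincide. Names of near-identical exons rest on this order. Converted 50-base reads are unique over 71.5% to 83.6% of the alpha promoters, 83.5% to 100% of the beta, 79.5% to 100% of the gamma and 100% of the C-type promoters. Over the exon bodies the share is 69.4% to 89.6% in alpha, 74.5% to 100% in beta, 69.3% to 100% in gamma and 100% in C-type genes. Reads of some members can thus be lost or exchanged between copies.

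Windows were compared with two-sided Fisher exact tests and Benjamini-Hochberg adjustment over all genes with at least 10 observations in each window. On simulated counts for 200 genes changed by 40 percentage points, 93.5% were recovered for promoter against downstream region, 92.5% and 86.5% for each ChIP-BisSeq replicate against REST knockout cells, and 89.5% between replicates. Enrichment is log2 of (observed + 1) over (expected + 1), the expected observations being REST knockout coverage scaled to the depth of the ChIP-BisSeq library, both totals without the 0.1% of CpGs most covered in REST knockout cells. That coverage stands for CpG number and mappability only. Nothing in the labels says that the ChIP-BisSeq replicates came from separate cultures, so their spread may be technical. Named singly are the C-type genes, the 3 lowest and 3 highest promoters of the other subfamilies in REST knockout methylation, the 5 highest and 5 lowest in enrichment, and, where over 10 members were called in a test between libraries, the 5 that differed most in each direction. Figures were drawn with matplotlib 3.10.9.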

Additional observations from a re-analysis of the deposited data

How the results depend on the processing

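Of 82 recalculations, 60 stayed within 1.5 times the count, or within the counting interval of the level, that the text reports. Members with a less methylated promoter numbered 16 to 32 under all alternatives, enriched members 41 to 54, and enriched bins of the clusters 84 to 161. Without replicate 1 or replicate 2 of ChIP-BisSeq, enriched members were 49 and 50, bins 161 and 138, and members less methylated in ChIP-BisSeq 16 both times, while members more methylated in ChIP-BisSeq were 0 to 2 (Pcdha8 and Pcdhb12 from replicate 1 alone). With limits of 10 and 30 percentage points, members with a more methylated promoter were 7 and 0, members less methylated in ChIP-BisSeq 25 and 6, and members that differed between replicates 5 and 0. With a promoter of 250 bp on either side these counts were 1, 8 and 2, and with the start codon in place of the TSS members with a more methylated promoter were 1. With 250 bp on either side the levels in REST knockout cells were 26.0% for beta, 10.8% for gamma and 6.96% for C-type promoters, and around the start codon they were 35.4%, 12.9% and 10.7%. As a mean over CpGs with a coverage of at least 10 they were 22.3% for alpha, 30.6% for beta and 10.8% for C-type promoters. With only CpGs in unique reads, an alternative added after seeing the data, alpha promoters stood at 30.4% and gamma promoters at 14.4%. Where not given by the limit or window itself, the cause was not tested. No paired analysis was possible because the REST knockout group has 1 library, so the groups share fewer than 2 replicate numbers. Depth limits single promoters in every library, with 10 observations at Pcdhgc5 in replicate 1 and 11 at Pcdhb21 in REST knockout cells the lowest counts of these libraries.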

Other observations

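The upstream flank of the members (1000 to 501 bp before the TSS) is poor in CpGs and was read thinly, with 284 observations in replicate 1, 342 in replicate 2 and 643 in the REST knockout library over all 58 members. Summed over members it was 46.8%, 46.2% and 43.5% methylated, against 10.0%, 9.45% and 16.1% at the promoters and 43.2%, 34.4% and 37.5% in the exon bodies. Of the 4 members enriched for CTCF from 1000 to 501 bp before the start codon, Pcdhgb8 stood highest. Its window held 71 and 74 ChIP-BisSeq observations against 12 in REST knockout cells, an enrichment of 5.21 and 4.80 on the log2 scale. This gene was chosen after its value had been seen.

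Between promoter and exon body methylation of the same member in REST knockout cells r was -0.035 and rho -0.067, over 58 members as a description within 1 library. Between promoter methylation and CTCF enrichment r was 0.31 and rho 0.43, and with the enrichment set against the number of CpGs 0.08 and 0.11. The REST knockout coverage enters both measures in the former.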
